A study of Mus musculus with 5 samples.

Results

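The 43 genes described here make, modify, store and release fatty acids, triglycerides and the lipids of sebum. They were chosen by gene symbol, and all 43 were found among the 47729 genes counted in RNA-seq libraries of sorted mouse dermal group 2 innate lymphoid cells (dILC2s). They span 9 roles: lipogenic transcription factors, de novo fatty acid synthesis, elongases, desaturases, glycerolipid synthesis, wax and sterol ester synthesis, lipid droplet proteins, lipolysis, and fatty acid uptake and activation. The study asked whether the loss of RAG1, the recombinase needed to assemble antigen receptor genes, changes dILC2s.

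WT libraries came from 3 pools of C57BL/6 mice (pools 5, 6 and 13) and the others from 2 pools of Rag1-/- mice (pools 2 and 7), which lack mature T and B cells. By the study's methods the mice were females of 8 to 13 weeks, with 10 mice combined in each WT pool and 9 in each Rag1-/- pool. The labels state that the cells were sorted from skin and not stimulated before RNA was taken, and the gate the study describes for dILC2s in flow cytometry is viable CD45+CD90hi cells without CD2 or CD3 signal. The labels count 30 WT mice and 16 Rag1-/- mice, and they call the cell type of the Rag1-/- libraries type 3 while their titles call them ILC2s. Each pool gave 1 library, so that the spread between libraries is the spread between pools. Total counts were 32939428 to 39477243 in WT, 8050562 in pool 2 and 38922750 in pool 7, and the smallest level that 3 counts can show was 0.373 CPM (counts scaled to the total on genes) in pool 2 against 0.0760 to 0.0911 CPM in the other libraries, for counting error only.

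The targeted gene did not separate the genotypes in the direction of the labels. For Rag1, 4, 0 and 5 counts were listed in WT pools 5, 6 and 13, against 5 in pool 2 and 48 in pool 7. With so few counts in WT, a loss of Rag1 could not have shown as a lower level, so these counts cannot check the labels. The genotypes of pools 2 and 7 are therefore those of the labels, in every comparison that follows. The markers of the sorted cell were detected in all libraries, and the summed share of counts on 12 ILC2 genes was 0.125% to 0.235% in WT against 0.589% in pool 2 and 0.387% in pool 7. Markers of other skin cells were present too. The share on 20 keratinocyte genes was 3.27% to 4.66% in WT, 0.812% in pool 2 and 1.90% in pool 7. By the edgeR rule given below, 9 of the 20 were called lower against WT, as were 2.16% of all genes tested. For 27 leukocyte genes the share was 0.111% to 0.269% in WT, 0.883% in pool 2 and 0.755% in pool 7. Of the 27, 19 were called higher, as were 3.57% of all genes tested. Of the T cell markers 3 of 10 tested were called higher, with 9 positive fold changes and 1 negative, but they did not move together. Cd3g was at 11.1, 13.2 and 19.0 CPM in WT and at 68.4 and 64.1 CPM in pools 2 and 7. Cd3e was at 5.46, 7.98 and 7.10 CPM against 9.44 and 7.43 CPM, and Cd5 at 3.58, 2.61 and 2.00 CPM against 1.37 and 0.668 CPM. None of the endothelial (11), fibroblast (10), macrophage (11) or mast cell genes (7) was called by edgeR.

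In the cell, fatty acid synthesis starts in the cytosol. ATP citrate lyase turns citrate into acetyl-CoA, acetyl-CoA carboxylase makes malonyl-CoA from it, and fatty acid synthase joins these units into palmitate. ELOVL enzymes then lengthen the chain, and SCD and FADS enzymes add double bonds. GPAM attaches the first acyl chain to glycerol-3-phosphate, AGPAT and lipin enzymes carry the product on to diacylglycerol, and DGAT enzymes close the triglyceride, which is stored in droplets coated by perilipins and CIDE proteins. In skin this machinery is most active in sebocytes, which fill with triglycerides and wax esters and burst to release sebum, in keratinocytes, which need very long chains for the barrier, and in dermal adipocytes. Lymphocytes use it too, and ILC2s take up fatty acids and keep them in droplets when activated. In bulk RNA, fewer cells of a type and less RNA per cell cannot be told apart.

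The promoters of the elongase and the acyltransferase that were called lower, Elovl6 and Gpam, are shown beside that of Elovl5, the elongase that lay in the other direction. The sequences are RefSeq's on GRCm38.p6 and hold up to 250 bases before an annotated start. Bases inside the gene record of the counts were left off, which shortened the windows of Elovl6 and Elovl5. Capitals mark matches, on either strand, to 4 motifs: CCAAT (NF-Y), GGGCGG (Sp1), CACGTG (an E-box) and TCACNCCAC (a sterol regulatory element, the site read by the product of Srebf1). Gpam has 2 annotated starts.
Elovl6, chr3:129532136-129532354, + strand: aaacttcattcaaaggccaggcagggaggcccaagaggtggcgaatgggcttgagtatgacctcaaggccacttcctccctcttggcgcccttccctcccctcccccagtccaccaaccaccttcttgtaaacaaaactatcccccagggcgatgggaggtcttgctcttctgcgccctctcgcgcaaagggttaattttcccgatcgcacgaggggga
Elovl5, chr9:77917115-77917363, + strand: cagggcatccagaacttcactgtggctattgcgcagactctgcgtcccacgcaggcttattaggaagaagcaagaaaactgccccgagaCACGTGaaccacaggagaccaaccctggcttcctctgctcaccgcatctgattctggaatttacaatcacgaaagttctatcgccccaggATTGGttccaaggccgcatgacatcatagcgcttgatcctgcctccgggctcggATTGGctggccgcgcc
Gpam distal start, chr19:55127239-55127488, - strand: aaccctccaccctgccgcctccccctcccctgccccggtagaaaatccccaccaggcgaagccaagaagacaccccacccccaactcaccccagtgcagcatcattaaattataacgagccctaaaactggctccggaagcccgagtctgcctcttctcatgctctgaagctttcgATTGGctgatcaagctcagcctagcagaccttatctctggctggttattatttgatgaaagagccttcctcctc
Gpam proximal start, chr19:55099478-55099727, - strand: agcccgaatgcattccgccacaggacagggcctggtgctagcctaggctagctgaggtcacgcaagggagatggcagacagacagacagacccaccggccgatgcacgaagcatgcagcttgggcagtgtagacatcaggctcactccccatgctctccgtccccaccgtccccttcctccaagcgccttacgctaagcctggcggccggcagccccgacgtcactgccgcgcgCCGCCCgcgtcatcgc

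The Elovl6 window held none of these letters, that of Elovl5 held 1 E-box and 2 CCAAT boxes, and those of Gpam held 1 CCAAT box (distal) and 1 Sp1 match (proximal). A RefSeq promoter was found for 32 of the 43 genes, 43 windows in all. Motifs were counted in the full 250 bases before each start, with nothing left off. CCAAT occurred in 20 of the 43 windows (46.5%) against 33.9% of 32851 mouse promoters of the same length, GGGCGG in 22 (51.2% against 32.7%), CACGTG in 2, those of Elovl5 and Lipe (4.65% against 6.02%), and TCACNCCAC in 1, that of Acsl1 (2.33% against 1.05%). These are matches of letters, and no site was tested.

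Most of the lipid genes had lower levels in the libraries labelled Rag1-/-, but few passed the test. Of 42 genes with enough counts, 1 was called higher, Dgat1, and 2 were called lower, Elovl6 and Gpam. A call by edgeR needed an adjusted p below 0.05 together with a change beyond 1 on the log2 scale, in either direction. Over all 19011 genes tested, 3.57% were called higher and 2.16% lower. The fitted log2 fold change was negative for 32 of the 42 lipid genes and positive for 10 (15 and 27 when libraries were scaled on keratinocyte genes), and its median was -0.98 against 0.02 for all genes tested. The values of both libraries labelled Rag1-/- lay below all WT values for 17 lipid genes (40.5%) and above them for 4 (9.52%), where 24% and 21.9% of all genes tested did so. DESeq2 called 9 lipid genes lower (Acacb, Elovl6, Elovl7, Scd1, Gpam, Soat1, Plin2, Acsl1 and Acsbg1) and 1 higher (Dgat1), where it called 7.16% of all genes lower and 6.85% higher. The gene outside the test, Mogat2, an acyltransferase of monoacylglycerol, was at 0 CPM in every WT library, at 0.373 CPM in pool 2, which is the floor of that library, and at 0.0257 CPM in pool 7.

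**Figure D1:**
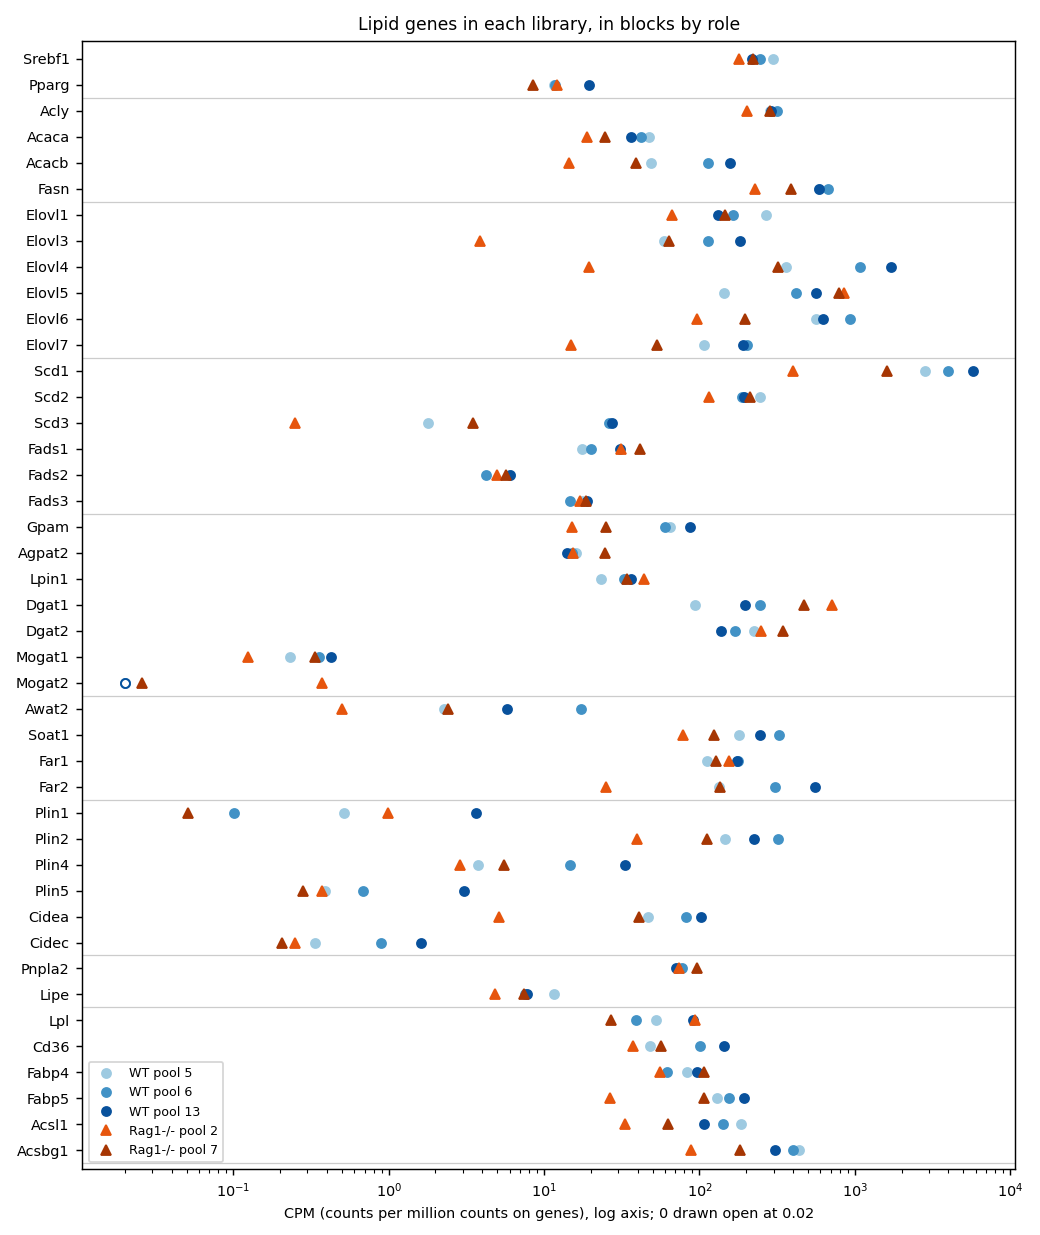
Level of each of the 43 lipid genes in each library, in CPM on a log axis, in blocks by role. Circles are the 3 WT pools and triangles the 2 pools labelled Rag1-/-. Levels span from under 1 CPM (Mogat1, Cidec) to 5729 CPM (Scd1, WT pool 13), and pool 2 is the lowest of the 5 libraries for 27 of 42 tested genes.

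The libraries labelled Rag1-/- differed from each other. Pool 2, the shallowest library, was the lowest of all 5 for 27 of 42 genes, and pool 7 for 5. Pool 7 lay within the range of the WT libraries for 15 genes and pool 2 for 7. WT libraries were spread as well, since pool 5 had the lowest WT value for 26 genes and pool 13 the highest for 23. The lipid genes together took 0.797%, 1.13% and 1.36% of the counts in WT pools 5, 6 and 13, and 0.404% and 0.653% in pools 2 and 7, so that the groups did not overlap. Without Scd1 the shares were 0.513%, 0.732% and 0.782% against 0.364% and 0.492%, and they still did not overlap. The share of glycerolipid synthesis lay the other way, with 0.0424% to 0.0523% of the counts in WT against 0.104% in pool 2 and 0.0902% in pool 7. Most of that share was Dgat1 and Dgat2 in every library, so that it does not stand for the whole role. Gpam, of the same role, was lower in pools 2 and 7, and the 6 tested genes had 4 positive and 2 negative fold changes.

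**Figure D2:**
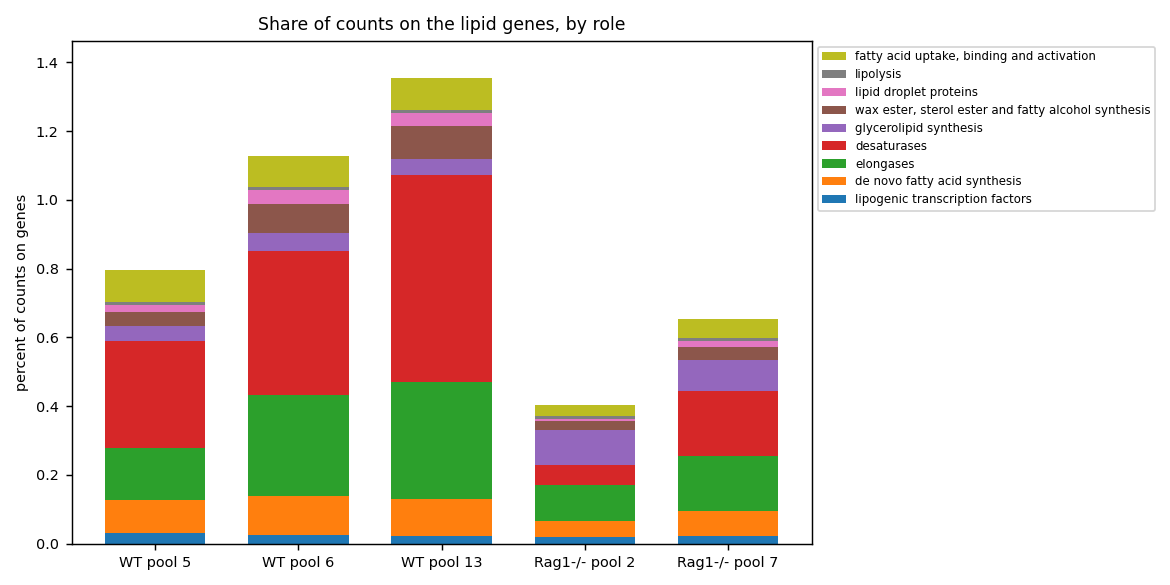
Share of all counts on genes that fell on the lipid genes, in percent, stacked by role, 1 bar per library. The desaturase block, which is mostly Scd1, shrinks from 0.312% to 0.601% in the WT pools to 0.0567% in pool 2 and 0.189% in pool 7. The glycerolipid block, which is mostly Dgat1 and Dgat2, is larger in pools 2 and 7 than in any WT pool.

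Neither transcription factor of lipogenesis was called. Srebf1, which encodes SREBP-1 and drives the genes of fatty acid synthesis, was at 299, 246 and 218 CPM in WT pools 5, 6 and 13 and at 181 and 221 CPM in pools 2 and 7. Its log2 fold change was -0.30 (SE 0.23, adjusted p = 0.457). Pparg, the nuclear receptor of adipocyte and sebocyte differentiation, was at 11.6, 11.8 and 19.6 CPM against 12.1 and 8.50 CPM (log2 fold change -0.46, SE 0.33, adjusted p = 0.427). Values of the groups overlapped for both genes.

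Among the enzymes of de novo synthesis, none of 4 passed the edgeR test, and 3 had non-overlapping lower values, as did 24% of all genes tested. Fasn, fatty acid synthase, was at 585, 672 and 586 CPM in WT and at 227 and 389 CPM in pools 2 and 7, a log2 fold change of -0.95 (SE 0.30, adjusted p = 0.0995). Both pools lay below the WT range, which was narrow. Acly, which supplies the acetyl-CoA, was at 283, 317 and 287 CPM against 202 and 285 CPM, and pool 7 lay inside the WT range (-0.24, SE 0.23, adjusted p = 0.571). The 2 acetyl-CoA carboxylases had log2 fold changes of -0.90 (Acaca, the cytosolic form, adjusted p = 0.0665) and -1.92 (Acacb, the form at the mitochondrial outer membrane, adjusted p = 0.100), and DESeq2 called Acacb lower (adjusted p = 0.00402). Of the read-length words (50 bases) in Acaca's exons, 30.4% also occur in other genes, mainly Gm5182, so that its count is uncertain.

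The elongases lay in both directions. Elovl6, which lengthens palmitate to stearate, was at 562, 933 and 626 CPM in WT and at 96.3 and 197 CPM in pools 2 and 7. Every WT library stood well above both others, and Elovl6 was lower by 4.68-fold (log2 fold change -2.23, SE 0.42, adjusted p = 0.0340, edgeR). Scaling on keratinocyte genes ended this call (-0.76, adjusted p = 0.299). The gene is on chromosome 3 of GRCm38, from 129532355 to 129638495. Elovl5, which lengthens polyunsaturated chains, was at 144, 419 and 562 CPM in WT and at 857 and 795 CPM in pools 2 and 7. Its groups did not overlap and it did not pass the test (log2 fold change 1.17, SE 0.50, adjusted p = 0.189). The span of the WT values, from 144 to 562 CPM, was wider than the gap between 562 and 795 CPM. Per length of exon, Elovl6 was at 2.14, 1.22 and 0.610 times the level of Elovl5 in WT pools 5, 6 and 13, and at 0.0615 and 0.136 times in pools 2 and 7.

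Elovl4, which makes the ultra-long chains of epidermal ceramides, varied widely within each group. It was at 363, 1084 and 1709 CPM in WT, at 19.5 CPM in pool 2 and at 318 CPM in pool 7. The fold between pool 7 and the lowest WT library was small beside that between pools 2 and 7, and the log2 fold change of -2.57 had an SE of 1.14 (adjusted p = 0.205). Elovl7, which acts on saturated long chains, had values from 107 to 203 CPM in WT against 14.9 and 53.6 CPM (-2.22, SE 0.57, adjusted p = 0.0661), and DESeq2 called it lower (adjusted p = 0.000421). Elovl3, an elongase of sebaceous glands and brown fat, was at 3.85 CPM in pool 2 and at 63.5 CPM in pool 7, within its WT range of 59.2 to 182 CPM. Elovl1, which makes saturated very long chains, was at 131 to 268 CPM in WT, 66.8 CPM in pool 2 and 146 CPM in pool 7.

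**Figure D3:**
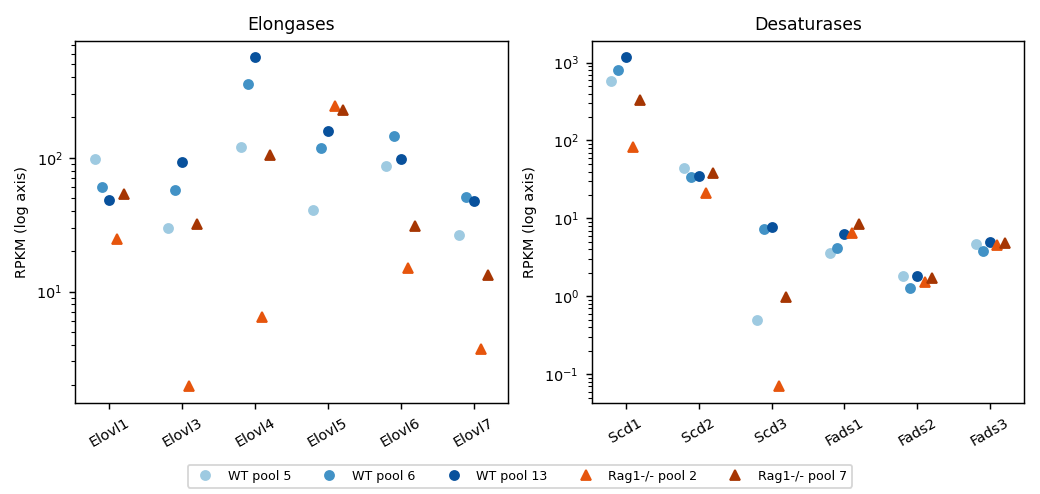
Levels of the 6 elongases (left) and 6 desaturases (right) per length of exon, in RPKM (CPM divided by the kilobases of exon) on log axes, with 1 point per library, circles for WT and triangles for the pools labelled Rag1-/-. Elovl5 is the elongase whose values in pools 2 and 7 (243 and 226 RPKM) lie above all WT pools, and Scd1 is above the other desaturases in every library.

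Scd1, the delta-9 desaturase that makes oleate and palmitoleate and the main one of sebaceous glands, was the most abundant lipid gene in WT. Its levels were 2836, 3951 and 5729 CPM in WT pools 5, 6 and 13, and 398 and 1612 CPM in pools 2 and 7. The groups did not overlap, yet on a log scale pool 7 was nearer to WT pool 5 than to pool 2. The log2 fold change was -2.0 (SE 0.63, 4.0-fold lower), which did not pass edgeR's test (adjusted p = 0.104) and passed that of DESeq2 (adjusted p = 0.00281). Scd1 held 35.0% to 42.3% of all counts on the lipid genes in WT, 9.86% in pool 2 and 24.7% in pool 7. It lies on chromosome 19 (44394451 to 44407709), 87.6 kb from Scd2, and 4.56% of the read-length words in its exons also occur in other genes, mainly Scd3, Scd2 and Scd4.

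Its neighbour Scd2, the form of brain and developing skin, was at 245, 188 and 192 CPM in WT and at 115 and 212 CPM in pools 2 and 7, and pool 7 lay inside the WT range (-0.31, SE 0.31, adjusted p = 0.584). Per length, Scd1 was 12.95, 23.4 and 33.3 times as high as Scd2 in WT and 3.87 and 8.50 times in pools 2 and 7. Scd3, a form of sebaceous glands, had the lowest fold change of all lipid genes (-3.05, SE 1.26, adjusted p = 0.177), but WT pool 5 with 1.78 CPM lay below pool 7 with 3.49 CPM. The front-end desaturases of polyunsaturated chains did not share this direction. Fads1 was at 17.5 to 30.8 CPM in WT and at 31.3 and 41.2 CPM in pools 2 and 7 (0.71, SE 0.29, adjusted p = 0.174), and Fads2 and its relative Fads3 had log2 fold changes of 0.01 and 0.11.

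Glycerolipid synthesis held 2 of the 3 called genes, in opposite directions. Gpam, the mitochondrial acyltransferase that starts the pathway, was at 64.3, 60.1 and 87.3 CPM in WT and at 15.2 and 25.2 CPM in pools 2 and 7. It fell by 1.75 on the log2 scale (SE 0.31, 3.37-fold lower, adjusted p = 0.0309, edgeR), and both pools were far below the lowest WT library in CPM. Scaling on keratinocyte genes ended the call and left a log2 fold change of -0.25 (adjusted p = 0.713). Its record is on chromosome 19, from 55069734 to 55099451. Dgat1, which joins the last acyl chain to diacylglycerol, was at 94.1, 245 and 196 CPM in WT and at 714 and 471 CPM in pools 2 and 7. It rose by 1.76 (log2, SE 0.40, 3.38-fold higher) with an adjusted p of 0.0499, just inside the threshold in edgeR, and of 0.000788 in DESeq2, whereas scaling on leukocyte genes gave -0.22. With RLE scaling (adjusted p = 0.0513) or library size alone (0.0523), edgeR did not call it. The leukocyte share of counts was also higher in both pools without overlap, and its part in the values of Dgat1 and Elovl5 was not tested. Dgat1 lies on chromosome 15, from 76502015 to 76511951. None of the 50-base words in Gpam, Dgat1 or Elovl5 occurs in another gene, whereas 3.98% of those in Elovl6 do, mainly in Gm11295.

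Dgat2, which makes triglycerides by an unrelated enzyme, was at 226, 170 and 138 CPM in WT and at 250 and 347 CPM in pools 2 and 7, without overlap (0.79, SE 0.28, adjusted p = 0.132). Between them, Agpat2, the second acyltransferase, and Lpin1, the phosphatidate phosphatase, had log2 fold changes of 0.46 and 0.37 and overlapping values. Mogat1 was below 0.5 CPM in every library.

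**Figure D4:**
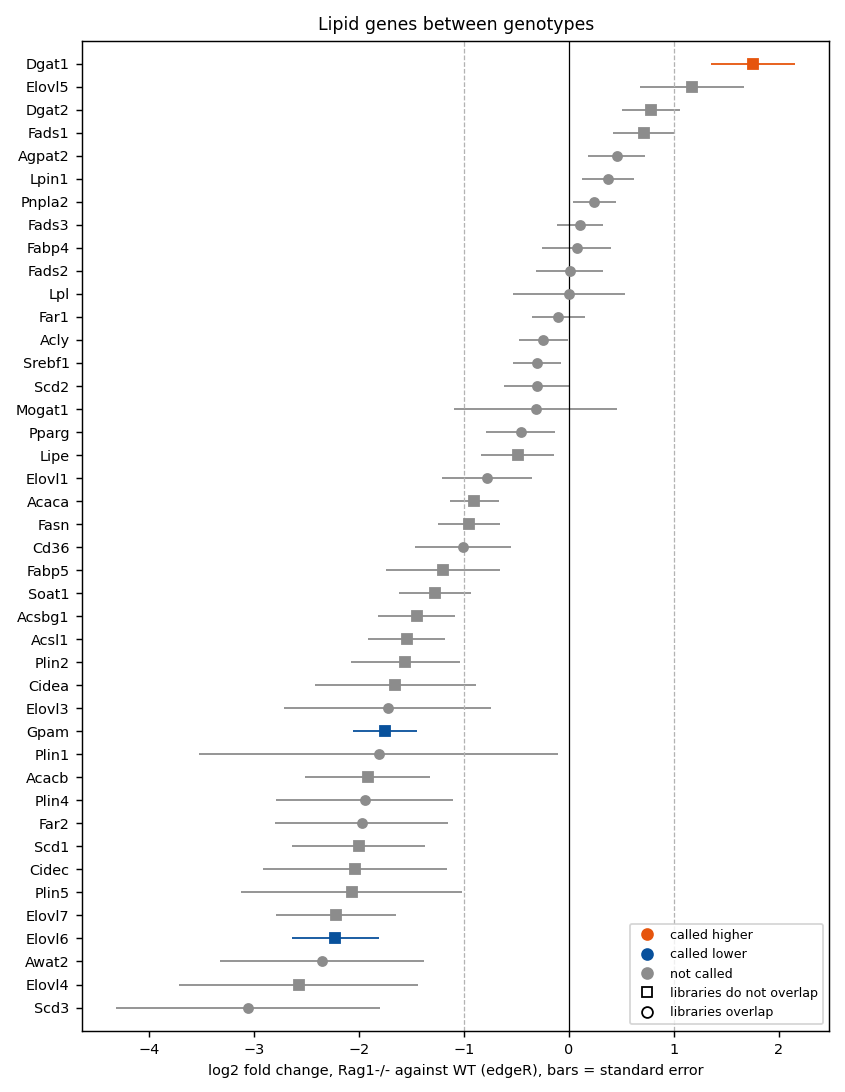
Log2 fold change of the 42 tested lipid genes in the libraries labelled Rag1-/- against WT, from edgeR with TMM scaling, sorted by size, with bars of 1 standard error. Squares mark genes whose libraries do not overlap between groups, and colour marks the 3 called genes. Dgat1 (1.76) is at the top, 21 genes lie below -1, and 19 of those were not called.

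The enzymes of wax and sterol esters and fatty alcohols all had negative fold changes, and none of 4 was called. Soat1, which esterifies cholesterol, was at 179, 326 and 246 CPM in WT and at 78.0 and 123 CPM in pools 2 and 7, without overlap (-1.28, SE 0.34, adjusted p = 0.0711). DESeq2 called it lower (adjusted p = 0.00399). Far2, which makes the fatty alcohols of waxes, was at 134, 306 and 554 CPM in WT, at 25.0 CPM in pool 2 and at 136 CPM in pool 7. Pool 7 was thus close to the lowest WT library, and the log2 fold change of -1.97 had an SE of 0.82 (adjusted p = 0.181). Of its exon bases 12.6% overlap other genes, mainly Ergic2 on the opposite strand, which the unstranded libraries cannot separate. Its relative Far1 was at 113 to 177 CPM in WT and at 155 and 128 CPM. Awat2, a wax synthase of sebaceous glands, was at 2.27 to 17.4 CPM in WT, 0.497 CPM in pool 2 and 2.42 CPM in pool 7.

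Most markers of sebocytes moved with these genes, with 6 negative fold changes and 1 positive. The summed share of 7 sebocyte genes was 0.0634%, 0.102% and 0.112% in WT pools 5, 6 and 13, and 0.0104% and 0.0429% in pools 2 and 7. Of the 7, 0 were called by edgeR and 3 were called lower by DESeq2, which called 7.16% of all genes lower. Values of 4 were lower without overlap, as were those of 24% of all genes tested. None of the 7 was at 0 counts in any library. Mc5r was not lower, at 3.04, 9.73 and 9.62 CPM in WT and at 8.94 and 9.46 CPM in pools 2 and 7. Awat1, a wax synthase of mature sebocytes, was counted 582, 3574 and 3812 times in WT, 2 times in pool 2 and 1153 times in pool 7. Not all markers had its order of libraries, and Apoc1 was highest in WT pool 6 (90.3 CPM). The order of the libraries in CPM was the same for Awat1 as for Far2, with pool 13 highest, pool 6 next and pool 2 lowest. Scd1 and Elovl4 had that order except that pools 5 and 7 changed places. Other lipid genes did not share it, as Elovl6 and Soat1 were highest in pool 6 and Acsbg1 and Acsl1 in pool 5. Pool 2 was the lowest library for 27 of the 42 tested lipid genes. The part of sebocytes and keratinocytes in the lipid results was not tested.

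Lipid droplet proteins had 6 negative fold changes of 6, but none passed edgeR's test. Values of 4 were lower without overlap, as were those of 24% of all genes tested. Of these 4, Plin5 and Cidec had 3 and 2 counts in pool 2, at or below the floor of that library. Plin2, the perilipin found on droplets of most cells, was at 146, 322 and 224 CPM in WT and at 39.5 and 112 CPM in pools 2 and 7 (-1.56, SE 0.52, adjusted p = 0.117). DESeq2 called it lower (adjusted p = 0.0120). Cidea, which enlarges droplets in brown fat and sebocytes, was at 46.8, 81.4 and 102 CPM in WT, at 5.09 CPM in pool 2 and at 40.6 CPM in pool 7 (-1.66, SE 0.77, adjusted p = 0.223). Plin1 and Cidec, the droplet proteins of white adipocytes, stayed under 4 CPM in every library, and so did Plin5, which links droplets to mitochondria. Plin4 was at 2.86 to 33.1 CPM.

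Adipocyte markers held a small part of the counts. The share of 9 such genes was 0.000830%, 0.000993% and 0.00481% in WT pools 5, 6 and 13, and 0.000373% and 0.00102% in pools 2 and 7. Lep and Pck1 had 0 counts throughout, and Adipoq was counted 7, 2 and 133 times in WT, 2 times in pool 2 and 0 times in pool 7. WT pool 13 thus had the largest summed share, with 1071 counts of Car3, and it was also the highest for Plin1 (3.64 CPM), Plin4, Plin5 and Cidec. Among WT libraries Adipoq, Retn, Adig and Car3 were highest in pool 13, but Cfd was highest in pool 5. Lgals12 (3.45, 2.94 and 2.19 CPM in pools 5, 6 and 13) and Adrb3 (1.29, 1.29 and 0.972 CPM) were lowest in pool 13.

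Neither lipolysis gene was called. Pnpla2, the lipase that removes the first fatty acid from triglyceride, was at 72.6, 77.5 and 71.0 CPM in WT and at 73.7 and 96.1 CPM in pools 2 and 7 (0.24, SE 0.20, adjusted p = 0.505). Lipe, hormone-sensitive lipase, was at 11.6, 7.50 and 7.71 CPM against 4.84 and 7.37 CPM (-0.49, SE 0.35, adjusted p = 0.427), and 15.6% of its exon bases overlap a gene of the opposite strand.

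In fatty acid uptake, binding and activation, the activating enzymes had the lower adjusted p-values. Acsbg1, an acyl-CoA synthetase of very long chains, was at 434, 399 and 307 CPM in WT and at 87.8 and 182 CPM in pools 2 and 7 (-1.45, SE 0.36, adjusted p = 0.0621), and Acsl1, a long-chain synthetase, was at 107 to 185 CPM against 33.3 and 62.5 CPM (-1.55, SE 0.36, adjusted p = 0.0530). Neither passed edgeR's test, and DESeq2 called both lower (adjusted p = 0.00161 and 0.000882). Of the exon bases of Acsl1, 9.91% overlap a gene of the opposite strand. Fabp5, the fatty acid-binding protein of epidermis, was at 129, 155 and 193 CPM in WT and at 26.6 and 106 CPM in pools 2 and 7 (-1.20, SE 0.54, adjusted p = 0.214). Its adipocyte and endothelial relative Fabp4 was at 61.9 to 95.8 CPM in WT and at 55.9 and 107 CPM, a log2 fold change of 0.07. Per length, Fabp5 was 1.95, 3.15 and 2.53 times as high as Fabp4 in WT and 0.599 and 1.25 times in pools 2 and 7. Lpl, which frees fatty acids from lipoproteins, was highest in pool 2 (93.9 CPM) and lowest in pool 7 (27.0 CPM). Cd36, a fatty acid translocase, was at 48.3 to 145 CPM in WT and at 37.4 and 56.8 CPM.

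Per length of exon, the ranking of the lipid genes changed between the groups. Scd1 ranked first in WT with a mean of 853 RPKM ± 298 (SD, n = 3) and was followed by Elovl4 (348 ± 223), Elovl6 (110 ± 30.8), Elovl5 (106 ± 60.4) and Acsbg1 (106 ± 18.3). The values of the last 4 overlapped, and those of Scd1 lay above them. In the libraries labelled Rag1-/- the order was Elovl5 (235 ± 12.5, SD, n = 2), Scd1 (206 ± 176), Dgat1 (194 ± 56.4) and Dgat2 (96.8 ± 22.3). The first 3 overlapped. Dgat2 (81.0 and 113 RPKM in pools 2 and 7) overlapped Scd1 (81.4 and 330 RPKM) and lay below Elovl5 and Dgat1. Dgat1 moved from rank 10 to rank 3 and Elovl6 from rank 3 to rank 13.

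Other genes of these pathways were tested in the same fit. Of 62 related genes, from the regulators of SREBP to fatty acid oxidation, 60 were tested, 0 were called higher and 2 lower in edgeR, with 17 positive and 43 negative fold changes and a median of -0.29. DESeq2 called 1 higher and 9 lower. Over all genes tested, edgeR called 3.57% higher and 2.16% lower, with a median of 0.02. DESeq2 called 6.85% of all genes higher and 7.16% lower. Ppara, the nuclear receptor of fatty acid oxidation, was at 7.84, 7.37 and 9.23 CPM in WT and at 1.74 and 2.13 CPM in pools 2 and 7, and it fell by 2.01 on the log2 scale (SE 0.33, adjusted p = 0.0306, edgeR). Lpin3, a relative of Lpin1, was at 23.1, 20.0 and 17.3 CPM against 4.22 and 8.09 CPM, and it fell by 1.63 (SE 0.35, adjusted p = 0.0426). No enzyme of fatty acid oxidation was called, and the median of that group of 13 genes was -0.19.

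The direction of many lipid genes turned with the scale. When libraries were scaled on the 27 leukocyte genes, which moved the fitted changes by -2.19 in the median, all 42 tested lipid genes were negative and 37 were called lower, as were 68% of all genes. Dgat1 was then at -0.22 and Elovl5 at -0.71, both above the median of all genes (-2.17). When libraries were scaled on the 20 keratinocyte genes, which shifted all genes by 1.67, 27 lipid genes were positive and 15 negative, with 14 called higher and 2 lower, Scd3 and Elovl4, against 59.1% and 0.368% of all genes. Scd1 was then at -0.77, Elovl6 at -0.76 and Gpam at -0.25, none of them called, and Fasn (0.58) and Soat1 (0.26) turned positive. Under all 3 scalings Dgat1 and Elovl5 were the highest of the 20 named genes and Elovl4, Elovl6 and Scd1 were among the 4 lowest. Because a scaling shifts all genes by a similar amount, their order is kept nearly by construction and is no separate result.

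**Figure D5:**
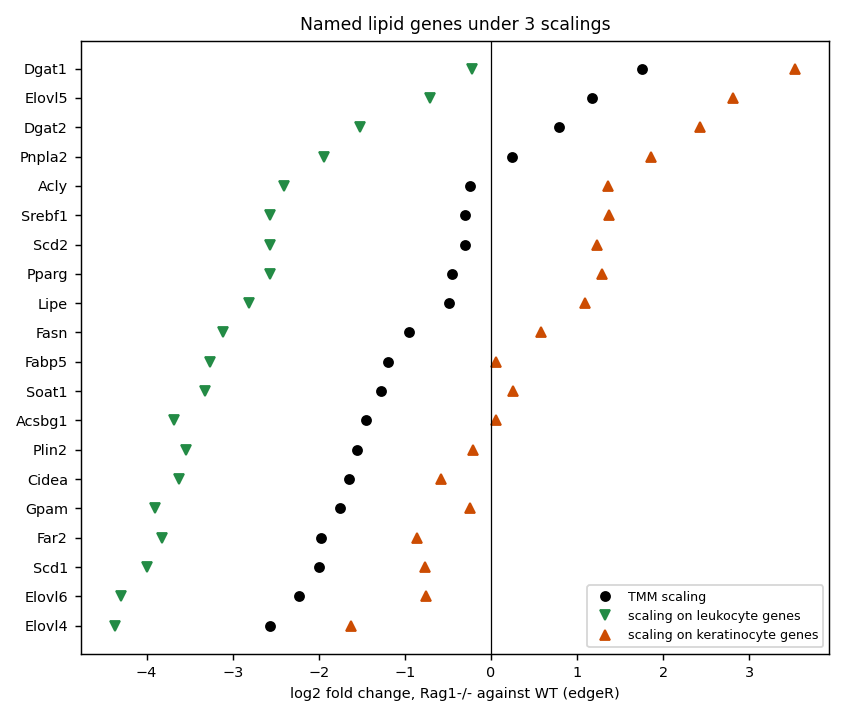
Log2 fold change of the 20 named lipid genes in the libraries labelled Rag1-/- against WT, from edgeR under 3 scalings: TMM (circles), the summed leukocyte genes (downward triangles) and the summed keratinocyte genes (upward triangles). The scalings shift all genes sideways, from Dgat1 at -0.22, 1.76 and 3.53 to Elovl6 at -4.30, -2.23 and -0.76, and leave their order nearly as it was.

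The values were also computed with each library left out. Without pool 2 or pool 7, only 1 library labelled Rag1-/- remained, so those fits held no spread between such pools. For them only the log2 fold changes are read, and counts of calls from them are not taken as support for a gene. Without pool 2, Elovl6 was at -1.77, Gpam at -1.42, Dgat1 at 1.47 and Scd1 at -1.30, and 29 of 42 fold changes were negative. With any 1 WT library left out, edgeR called no gene of the whole table (smallest adjusted p from 0.0544 to 0.109), so that the loss of the 3 calls there is not particular to them. The log2 fold changes were then -2.37 to -1.97 for Elovl6, -1.85 to -1.58 for Gpam and 1.45 to 2.07 for Dgat1. Without pool 7 all 3 stood, with 1 lipid gene called higher and 15 lower, beside 4.07% and 7.98% of all genes. In that fit pool 2, the shallowest library, was set alone against WT, so its calls cannot show that the 3 genes hold across pools. The log2 fold changes there were -2.94 for Elovl6, -2.28 for Gpam and 1.94 for Dgat1. For 1 gene alone, 3 and 2 libraries can be split in 10 ways, and the smallest exact two-sided permutation p is 0.1.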

How the data were processed

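Per the labels and the study's methods, the authors sequenced unstranded libraries, used STAR 2.5 for alignment (GRCm38) and featureCounts 1.5.0-p1 for counting, and deposited raw counts without normalization. A deposited table of normalized values was not used. The labels and the methods name different annotation releases.

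Genotypes were compared over all 5 libraries with the quasi-likelihood test of edgeR 4.0.16 in R 4.3.3 after filterByExpr and TMM scaling, with genotype as the only factor and p-values adjusted by Benjamini-Hochberg over all 19011 genes tested. DESeq2 1.42.0 was an alternative. RPKM values used the union of GENCODE M21 exons. Lengths do not enter the tests.

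Genes named are Scd1, called members and the 2 members of each role with the highest mean CPM; other members are given by counts and ranges or brief values. The members and lists were chosen with earlier results of these data known. P-values measure the spread between pools. Alternatives covered scaling, filters, call rules, depth and each library left out.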

Additional observations from a re-analysis of the deposited data

How the results depend on the processing

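No paired analysis was possible because the groups share no replicate number. Lipid genes called higher and lower numbered 1 and 9 with DESeq2, 0 and 2 with RLE scaling, 0 and 3 with library size alone, 0 and 37 with scaling on leukocyte genes, 14 and 2 with scaling on keratinocyte genes, 2 and 19 with no filter, 1 and 6 with at least 10 counts in every library, 0 and 0 with the null set at a log2 change of 1 (8 at an unadjusted p under 0.05, edgeR), and 1 and 5 with all libraries thinned to the shallowest. Related pathway genes numbered 1 and 9, 0 and 2, 0 and 3, 0 and 50, 24 and 2, 1 and 12, 1 and 3, 0 and 0, and 1 and 1 in the same order. Over all genes the counts were 679 and 411 in the edgeR analysis reported above, 1203 and 1256 with DESeq2, 16 and 12927 with scaling on leukocyte genes, 11230 and 70 with scaling on keratinocyte genes, 1157 and 1488 with no filter, 856 and 641 with at least 10 counts in every library, and 0 and 0 with that null (1635 at an unadjusted p under 0.05). The robust fit and the adjusted p alone gave 1 and 2 lipid genes. Leaving out 1 library gave 0 to 814 genes higher and 0 to 1595 lower, 0 to 1 lipid genes higher and 0 to 15 lower, and 0 related genes higher and 0 to 15 lower, and the higher values came without pool 7. The counts of 0 arose without any 1 WT library or without pool 2, where 3521 to 5200 genes, 11 to 22 of them lipid genes, had an unadjusted p under 0.05 (edgeR). Fits without pool 2 or without pool 7 held 1 library labelled Rag1-/-. Their counts of genes thus carry no spread between such pools and are not read as results. The lipid share of counts was lower in the libraries labelled Rag1-/- by a mean difference of -0.565 percentage points, -0.592 without keratin genes in the total and -0.713 to -0.434 with 1 library left out.

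Scaling on leukocyte genes turned Dgat1 (-0.22), Elovl5 (-0.71), Dgat2 (-1.52) and Pnpla2 (-1.94) negative. Scaling on keratinocyte genes turned Srebf1 (1.37), Pparg (1.29), Fasn (0.58), Acly (1.36), Scd2 (1.23), Soat1 (0.26), Lipe (1.09), Acsbg1 (0.0556) and Fabp5 (0.0565) positive, and both scalings shift all genes by construction. With 1 library left out, log2 fold changes ranged from -0.61 to 0.0159 for Acly, from -0.92 to 0.10 for Scd2 and from -0.0619 to 0.45 for Pnpla2. Dgat1 lost its call under RLE scaling and library size alone, and the cause was not tested. The depth of pool 2 limits what can be said of genes under about 1 CPM, such as Mogat1, Plin5 and Cidec.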
